A study of Drosophila melanogaster with 12 samples.

Results

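The 7 genes described here form the transcriptional feedback loops of the Drosophila circadian clock, and were taken by symbol as vrille (vri), PAR-domain protein 1 (Pdp1), clockwork orange (cwo), period (per), timeless (tim), Clock (Clk) and cycle (cyc). All 7 were among the 12216 genes of the deposited table, and 5 of them were among the 8455 genes tested. RNA was sequenced from wing imaginal discs, the epithelial sacs from which the wings of the fly develop, of w1118 larvae, which the labels call wildtype. Discs were taken from larvae 24 h past the moult to the third instar and cultured for 2.5 h at 25°C in a medium named Dye in the labels. Added to it was 20-hydroxyecdysone (20E), which is the moulting hormone of insects in its active form, at 0, 20, 200 or 2000 nM, with 3 libraries per dose and 12 in all. The title of the study asks how the action of the ecdysone receptor on proliferation depends on hormone level, and the 0 nM discs are the controls. In the labels every group has the same larval age, culture temperature and length of culture. They give neither the sex of the larvae nor the hour of day of dissection.

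In the fly clock, the bHLH-PAS proteins CLOCK and CYCLE bind together to E-box sequences and activate per, tim, vri, Pdp1 and cwo. PERIOD and TIMELESS return to the nucleus and inhibit their activators, which closes the first loop. In the second loop the bZIP proteins VRILLE and PDP1 act on the Clk gene in opposite ways, VRILLE as repressor and PDP1 as activator. CLOCKWORK ORANGE, a bHLH-orange protein, represses E-box genes. The clock is best known from neurons of the brain and from adult tissues. Some members also act outside it in fly development: vri is required in the embryo and for the growth of wing hairs and cells, and Pdp1 acts in muscle and in the fat body.

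Libraries held 9034719 to 27006374 reads, and a single read equalled 0.565 to 1.69 normalised counts, the unit of the levels below. Within a dose, libraries correlated across genes at 0.984 to 0.994 on the log2 scale. The summed level of 5 wing disc genes (nub, vg, ap, sd and wg) was 21741 to 23888 normalised counts at 0 nM and 29200 to 31886 at 2000 nM. Of the 5, nub, ap and wg were higher at 2000 nM (limma, adjusted p under 0.05), while vg and sd did not pass. Of the neuronal markers, elav stood at 304 to 766 in the 12 libraries, while nSyb stayed at or under 21.8, Syt1 at or under 17.7, brp at or under 3.38 and Pdf, the neuropeptide of the clock neurons, at or under 5.26. Summed fat body markers were uneven among the controls, at 615.3, 17.05 and 2089 in libraries 1, 2 and 3 of 0 nM, and lay between 75.08 and 309.3 in the other 9. Discs were sequenced in bulk, so fewer cells of a type and less RNA per cell cannot be told apart.

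Against 0 nM, 20 nM 20E was followed by a rise of vri and a fall of Pdp1, and 2000 nM by rises of vri and per and falls of Pdp1 and cwo. The gene of CLOCK's partner, cyc, did not pass the test at any dose, and tim and Clk had too few reads to be tested. At 20 nM, 2 of the 5 tested members passed the test (limma, adjusted p under 0.05), where 4.51% of all tested genes did. At 200 nM 3 of the 5 passed, against 20.4% of all tested genes. At 2000 nM 4 of the 5 passed, against 31.0%. The 3 comparisons share the 0 nM libraries. The clock genes were chosen with earlier results of these data known, so these counts are no test of the set. Over all tested genes, 2.97% rose and 1.54% fell at 20 nM, 9.92% and 10.4% at 200 nM, and 15.4% and 15.5% at 2000 nM. In the F test for a difference at any dose, 4 of the 5 passed, against 23.7% of all tested genes. Between hormone doses, only Pdp1 of the 5 passed from 20 to 200 nM (8.0% of all tested genes) and from 20 to 2000 nM (16.3%), and no member passed from 200 to 2000 nM (0.201%), with limma, with limma-voom or at an unadjusted p under 0.05.

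**Figure D1:**
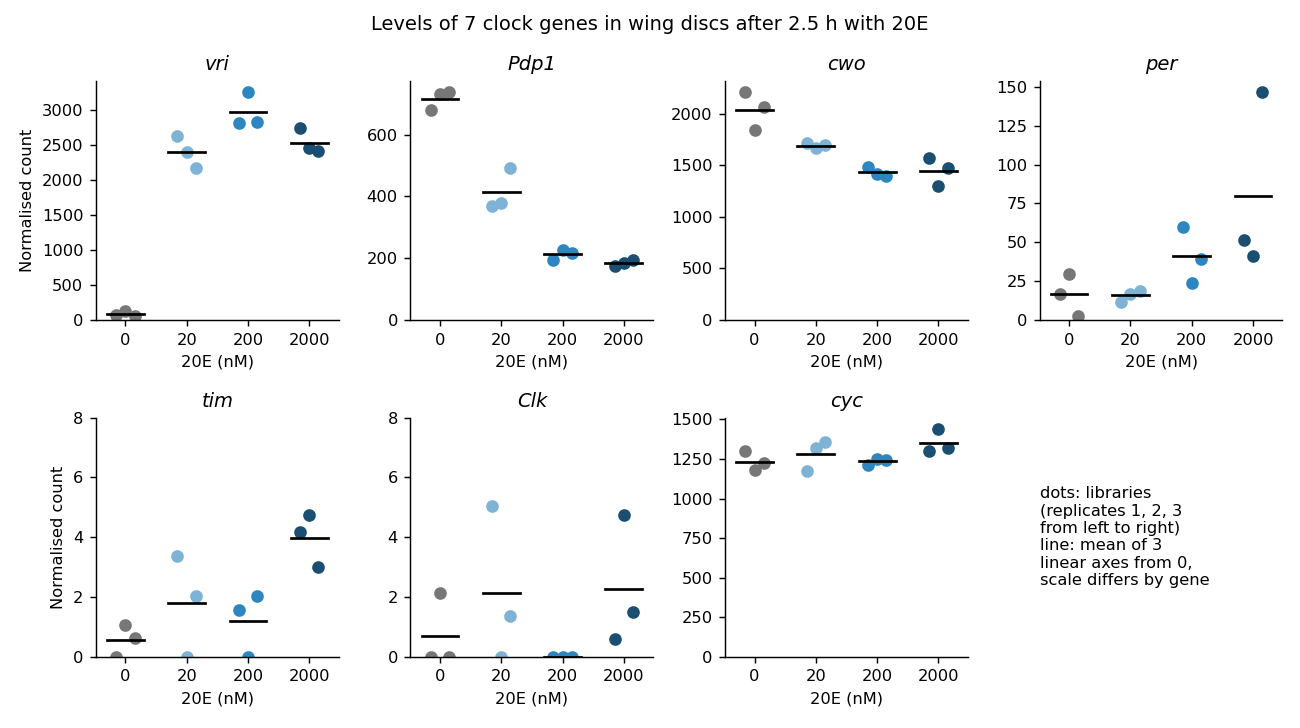
Normalised count of each of the 7 clock genes in each of the 12 libraries, on linear axes from 0 whose scale differs by gene, by 20E dose in nM. Points are libraries, replicates 1 to 3 from left to right, and lines are means of 3; the vri points at 0 nM lie between 59.4 and 132.1 and those at every hormone dose lie above 2170.

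The vri gene, whose bZIP product represses Clk in the clock, was low without hormone and high at every dose of it. Its normalised counts at 0 nM were 74.6, 132.1 and 59.4 in libraries 1, 2 and 3, from 57, 124 and 94 reads. At 20 nM they were 2626, 2406 and 2174. At 200 nM they were 2816, 3254 and 2831, and at 2000 nM 2741, 2463 and 2410. The 3 control libraries lay far below the other 9, with no overlap, and the 20 and 2000 nM libraries overlapped each other. The mean was 88.7 ± 38.3 (SD, n = 3) at 0 nM and 2402 ± 226 at 20 nM. This was a rise of 4.82 ± 0.20 (log2, SE) or 28.3-fold, with a 95% interval of 20.9 to 38.2-fold and an adjusted p of 1.8e-09. It ranked 2 among all tested genes by the size of rise at 20 nM. At 200 nM the rise was 34.9-fold (adjusted p = 1.72e-10), at rank 15, and at 2000 nM 29.9-fold (adjusted p = 2.18e-10), at rank 23. Between hormone doses its level did not pass the test. From 20 to 200 nM it was 1.24-fold (95% interval 0.915 to 1.67, adjusted p = 0.496) and from 20 to 2000 nM 1.06-fold (0.783 to 1.43, adjusted p = 0.838). From 200 to 2000 nM the ratio was 0.856 (0.634 to 1.16, adjusted p = 0.732), although the libraries of these doses did not overlap. Those of 20 and 200 nM did not overlap either. The doses share an estimate of the spread, and the SD was 43.2% of the mean at 0 nM against 7.01 to 9.41% at the hormone doses. The adjusted p from 20 to 200 nM was 0.093 without library 2 of 0 nM and 0.76 without library 2 of 200 nM. On the log2 scale 98.3% of the change from 0 to 2000 nM was present at 20 nM, with a range of 97.0 to 99.8% when each library was left out in turn.

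Pdp1, whose bZIP product activates Clk, fell at every hormone dose. Counts are of the whole gene, with 13 annotated transcripts, so they do not show which of its transcripts fell. At 0 nM its normalised counts were 679.4, 731.9 and 736.7. At 20 nM they were 367.7, 379.9 and 491.8, at 200 nM 193.2, 226.9 and 218.1, and at 2000 nM 175.9, 183.4 and 195.2. Each of 0, 20 and 200 nM was apart from the next, and the 200 and 2000 nM libraries overlapped. The log2 change from 0 nM was -0.80 ± 0.11 at 20 nM (adjusted p = 0.000362), -1.75 ± 0.11 at 200 nM (adjusted p = 3.6e-08) and -1.95 ± 0.11 at 2000 nM (adjusted p = 8.11e-09), the last being 3.86-fold lower. The step from 20 to 200 nM was -0.95 ± 0.11 (adjusted p = 6.51e-05). From 200 to 2000 nM the ratio was 0.871, with an interval of 0.738 to 1.03 and an adjusted p of 0.561. Of the whole change, 41.2% was present at 20 nM (37.3 to 48.0% with each library left out) and 89.8% at 200 nM. The call at each dose against 0 nM held in all 19 alternatives for vri and for Pdp1. Summed markers of the muscle precursors of the disc were 2400 to 2635 at 0 nM, 2739 to 2844 at 20 nM, 2163 to 2698 at 200 nM and 2088 to 2454 at 2000 nM, and of the 5 genes twi and htl fell and zfh1 rose at 2000 nM. Their part in the Pdp1 result was not tested.

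The E-box repressor gene cwo fell at 200 and 2000 nM. Its normalised counts at 0 nM were 2205, 1844 and 2063, and at 20 nM 1712, 1663 and 1694. At 200 nM they were 1483, 1413 and 1395, and at 2000 nM 1565, 1302 and 1472. All control libraries lay above all hormone libraries, and the 200 and 2000 nM libraries overlapped. The log2 change was -0.51 ± 0.08 at 200 nM (1.42-fold lower, adjusted p = 0.000259) and -0.49 ± 0.08 at 2000 nM (1.41-fold lower, adjusted p = 0.000249). At 20 nM it was -0.27 ± 0.08, with an adjusted p of 0.0811 that became 0.0306 without library 2 of 0 nM and 0.0418 without library 2 of 2000 nM, and that ranged up to 0.294, without library 1 of 0 nM. The ratio from 20 to 2000 nM was 0.854, with an adjusted p of 0.0619 that became 0.0481 without library 2 of 0 nM and 0.0381 without library 1 of 2000 nM, and 0.0428 with TMM scaling and 0.0439 with limma-voom. Without library 2 of 2000 nM the same log2 difference was -0.15, at an adjusted p of 0.191, in place of -0.23. From 20 to 200 nM the log2 difference was -0.24 ± 0.08, at an adjusted p of 0.0837 that became 0.0475 without library 2 of 2000 nM and 0.224 without library 3 of 200 nM.

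**Figure D2:**
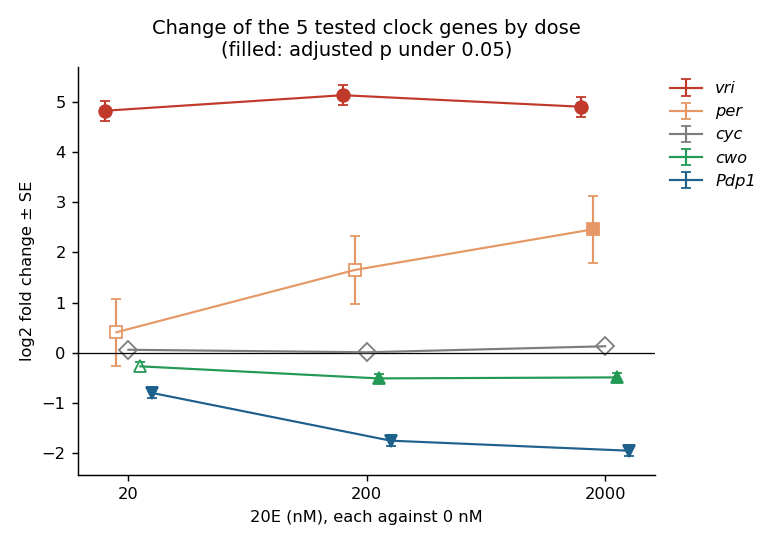
Log2 fold change of the 5 tested clock genes against 0 nM at 20, 200 and 2000 nM, ± SE from the limma fit on 3 libraries per dose, with filled symbols for an adjusted p under 0.05. The vri points lie between 4.82 and 5.13, Pdp1 goes from -0.80 at 20 nM to -1.95 at 2000 nM, and cyc stays at or under 0.13.

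The per gene, whose product inhibits CLOCK and CYCLE, was scarce and uneven among libraries. At 0 nM it had 17.0, 29.8 and 2.53 normalised counts, from 13, 28 and 4 reads. At 20 nM the values were 11.8, 17.0 and 18.9, at 200 nM 59.7, 23.9 and 39.6, and at 2000 nM 51.3, 41.1 and 146.4. The 2000 nM libraries all lay above the controls, but library 3 held 195 of their 307 reads, and the 200 nM libraries overlapped those of 0 and 2000 nM but not those of 20 nM. The mean went from 16.5 ± 13.7 to 79.6 ± 58.1 (SD, n = 3) between 0 and 2000 nM, a log2 rise of 2.46 ± 0.67 or 5.49-fold, with a 95% interval of 2.03 to 14.8-fold and an adjusted p of 0.0123. Without library 3 of 2000 nM the change was 1.91 with an adjusted p of 0.0655, and it was 1.54 without library 3 of 0 nM and 3.11 without library 2 of 0 nM, with adjusted p of 0.0431 and 0.00317. In the F test per had an adjusted p of 0.0416, which was above 0.05 without library 1 of 0 nM, any library of 20 nM, library 1 or 3 of 200 nM or library 1 or 3 of 2000 nM (0.0521 to 0.129). Against 0 nM the change was 0.41 ± 0.67 at 20 nM (adjusted p = 0.928, and -0.50 without library 3 of 0 nM) and 1.65 ± 0.67 at 200 nM (adjusted p = 0.104, and 2.31 at 0.0258 without library 2 of 0 nM but 0.74 at 0.41 without library 3 of 0 nM). From 20 to 2000 nM it was 2.05 ± 0.67 with an adjusted p of 0.0514, which passed with TMM scaling (0.0492), limma-voom (0.0349), a pseudocount of 5 (0.0295) and without library 2 of 0 nM (0.0308), library 3 of 0 nM (0.00731) or library 2 of 2000 nM (0.0445). It did not pass in the other 13 alternatives, and was 1.5 at an adjusted p of 0.212 without library 3 of 2000 nM and 1.86 at 0.145 without library 1 of 20 nM. The neuronal marker sum was 330.7 to 458.2 at 0 nM and 619.6 to 785.2 at 2000 nM. In library 3 of 2000 nM it was 697.6, of which elav made up 669.1. The elav gene, 1 of the 5 markers and of the 2 tested, rose at 2000 nM by 0.93 on the log2 scale. In libraries 1, 2 and 3 of 2000 nM, nSyb (10.73, 6.322 and 21.78) and Pdf (1.192, 0 and 5.257) were highest in library 3. The markers brp (2.385, 3.161 and 1.502) and Syt1 (4.77, 1.581 and 0) were lowest there. All markers but elav were low. The part of the neuronal markers in the per result was not tested. The exons of per overlap those of dyw on the other strand by 49 bases, 1.08% of their length in the supplied annotation of the fly genome, and the strand setting of the counting is not given in the sources used here.

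The gene for CLOCK's partner, cyc, did not pass the test in any comparison. At 0 nM it had 1299, 1179 and 1222 normalised counts, at 20 nM 1172, 1321 and 1357, at 200 nM 1214, 1252 and 1245, and at 2000 nM 1302, 1438 and 1317. The libraries of 2000 nM lay above the controls with 1302 against a highest control of 1299. The 2000 nM level was 1.10-fold that of 0 nM, with an interval of 0.988 to 1.22 and an adjusted p of 0.17.

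Reads of tim, whose product pairs with PERIOD, were 0, 1 and 1 in the 0 nM libraries. They were 2, 0 and 3 at 20 nM, 1, 0 and 2 at 200 nM and 7, 3 and 4 at 2000 nM. All 3 libraries of 2000 nM were above each control. The pooled rate at 2000 nM was 6.26 times that at 0 nM, with an exact 95% interval of 1.44 to 56.7 that covers counting error only. Clk had 0, 2 and 0 reads at 0 nM, 3, 0 and 2 at 20 nM, none at 200 nM and 1, 3 and 2 at 2000 nM. The 0 of 35372079 reads at 200 nM allows up to 3 reads at that depth. Neither gene passed the filter, so neither was tested, and the authors' deposited table gives a p-value of 0.378 for tim and 0.431 for Clk with no adjusted value. In the supplied annotation tim shares exons with a snoRNA gene on its own strand and a long non-coding RNA gene on the other.

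Levels can be compared between genes per kilobase of exon, taken from the supplied annotation. At 0 nM the order of the mean level per kilobase was cyc at 759, cwo at 400, Pdp1 at 59.0, vri at 18.7, per at 3.64, Clk at 0.157 and tim at 0.0804. At 2000 nM vri had moved from the fourth place to the second: cyc stood at 832, vri at 536 ± 37.5, cwo at 284 ± 26.2, per at 17.6 ± 12.8, Pdp1 at 15.2 ± 0.804, tim at 0.564 and Clk at 0.505. The neighbours per and Pdp1 at 2000 nM did not differ beyond their spread, and tim and Clk rest on a few reads at both doses. This scale assumes that all annotated exons are used, and Pdp1 has 13 annotated transcripts against 5 of vri.

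The ratio of vri to Pdp1 reads within a library was free of any scaling between libraries. At 0 nM it was 0.11, 0.18 and 0.0807 in libraries 1, 2 and 3. At 20 nM it was 7.14, 6.33 and 4.42, at 200 nM 14.6, 14.3 and 13.0, and at 2000 nM 15.6, 13.4 and 12.3. Pdp1 reads outnumbered vri reads in every control library, and vri reads outnumbered Pdp1 reads in every hormone library. The mean log2 ratio was higher by 5.64 at 20 nM, by 6.90 at 200 nM and by 6.87 at 2000 nM, each at an exact two-sided permutation p of 0.1, which is the smallest that 3 against 3 libraries allow. At each dose vri lay above and Pdp1 below the controls without overlap, so this p was fixed in advance and adds no support. The mean log2 ratio of cwo to cyc was lower by 0.63 at 2000 nM than at 0 nM, again at p = 0.1 (exact permutation): the ratio was 1.7, 1.56 and 1.69 at 0 nM and 1.2, 0.905 and 1.12 at 2000 nM. That p was fixed too, since at 2000 nM cwo lay below and cyc above the controls without overlap.

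**Figure D3:**
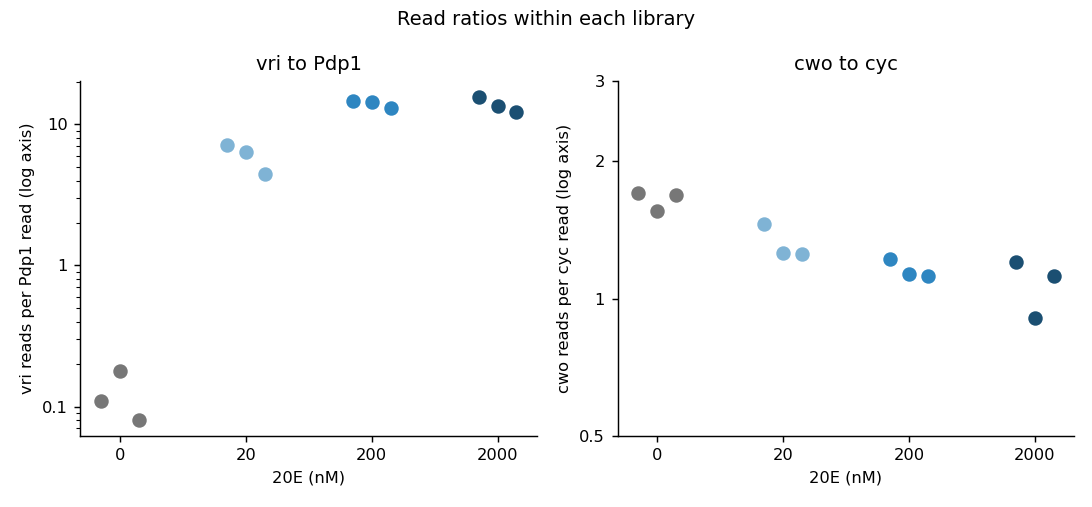
Reads of vri per read of Pdp1 (left) and of cwo per read of cyc (right) in each library, on log axes, by 20E dose in nM; points are libraries, replicates 1 to 3 from left to right. The vri to Pdp1 ratio lies between 0.0807 and 0.18 at 0 nM and between 4.42 and 15.6 at the hormone doses.

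Among 4600 named genes with a mean of at least 50, the profiles most like that of vri over the 12 libraries were those of Eip75B, bip1 and Pdk1. Likeness was the root-mean-square difference of centred log2 values, which was 0.641 for Eip75B, an ecdysone-induced nuclear receptor gene, 0.802 for bip1 and 0.954 for Pdk1, which encodes a kinase of insulin signalling. These are wide distances, since the nearest gene to Pdp1, gcl, lay at 0.12, the nearest to cwo, Vha55, at 0.075, and the nearest to cyc, Arl1, at 0.042. The genes near to cwo and cyc vary little, which makes distances small. Next to gcl, Tsp42Ea and PRAS40 both lay at 0.202 from Pdp1. For per the nearest were Phlpp at 0.417, Hsp26 at 0.488 and ppk9 at 0.518. Both Phlpp and ppk9 shared with per a high library 3 at 2000 nM, with 82.9, 61.6 and 204 counts for Phlpp and 177, 126 and 428 for ppk9. Hsp26 was also highest there, at 3624, 4751 and 5689. At 0 nM per and these 3 genes were all highest in library 2 and lowest in library 3. The control counts were 15.7, 59.7 and 7.59 for Phlpp, 732, 2397 and 324 for Hsp26, and 60.2, 106.5 and 21.5 for ppk9. The controls of vri (74.6, 132.1 and 59.4) and Eip75B (104.7, 116.1 and 92.3) had the same order. Those of Pdp1, cwo and cyc did not. The fat body marker sum had the reverse order, at 615.3, 17.05 and 2089. The cause of these differences among the controls was not tested. The search for likeness used these same libraries.

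**Figure D4:**
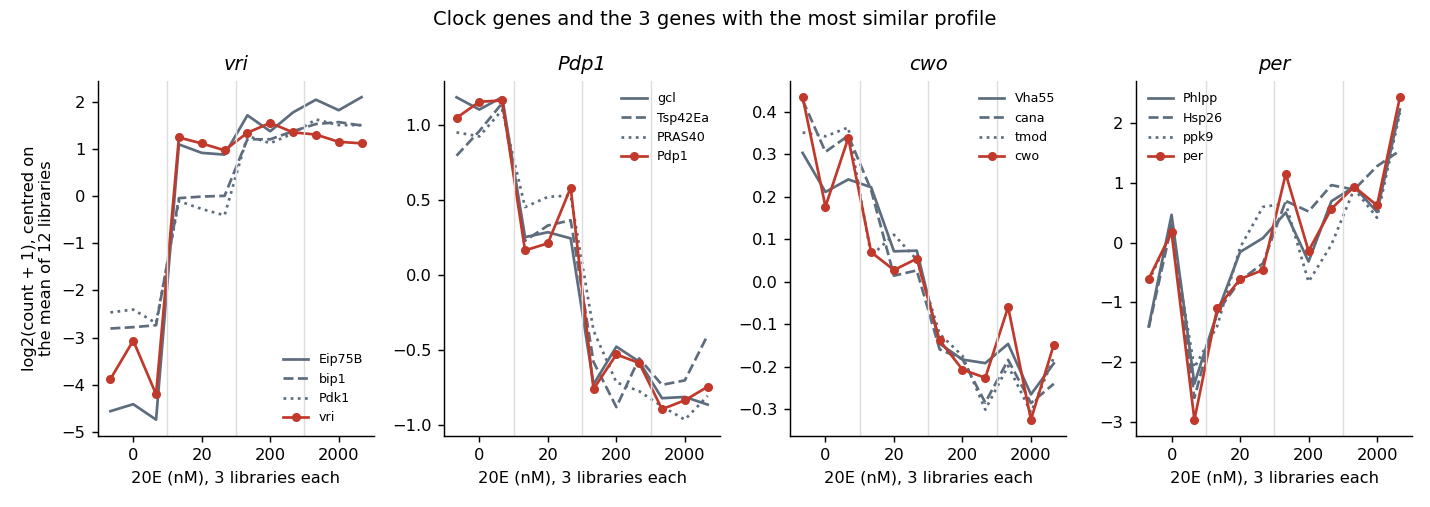
Log2(normalised count + 1), centred on each gene's mean of 12 libraries, of vri, Pdp1, cwo and per (red) and of the 3 genes with the most similar profile (grey), in the 12 libraries ordered by 20E dose in nM; lines only join the libraries of a gene. Eip75B rises by 1.02 from 20 to 2000 nM, where vri differs by 0.08.

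Eip75B departed from vri in dose. Its normalised counts were 104.7, 116.1 and 92.3 at 0 nM, 5313, 4692 and 4574 at 20 nM, and 10245, 8779 and 10633 at 2000 nM. It rose by a further 1.02 (log2) from 20 to 2000 nM (adjusted p = 2.17e-05), where vri differed by 0.08. The vri to Eip75B read ratio was 0.494, 0.513 and 0.475 at 20 nM and 0.268, 0.281 and 0.227 at 2000 nM, with no overlap, a difference of -0.94 on the log2 scale (exact permutation p = 0.1).

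Genes of the wider clock machinery were read from the same fit. Of 14 genes for kinases, phosphatases and degradation of PER and TIM, 1 rose at 20 nM, and 3 rose and 1 fell at 2000 nM, with a median log2 change of 0.00 at both doses and of -0.001 and -0.004 over all tested genes at 20 and 2000 nM. The 4 of 14 past the test at 2000 nM are near the 31.0% of all tested genes, and the 1 of 14 at 20 nM stands beside 4.51%. The gene that rose at 20 nM was nmo, whose kinase phosphorylates PER and also antagonises Wingless signalling in the wing. It had 911.1, 916.2 and 822.7 normalised counts at 0 nM, 3447, 3480 and 3572 at 20 nM, 9852, 9649 and 9964 at 200 nM and 13422, 12168 and 13202 at 2000 nM. No dose overlapped another. Its log2 rise was 1.99 ± 0.06 at 20 nM (adjusted p = 6.16e-11) and 3.87 ± 0.06 at 2000 nM (adjusted p = 1.07e-14). The ubiquitin ligase genes slmb and ctrip rose at 2000 nM by 0.28 (adjusted p = 0.00388) and 0.71 (adjusted p = 0.00458). The gene jet, for an F-box protein that targets TIM in light, fell by 0.39 with an adjusted p of 0.039. That call was lost without library 1, 2 or 3 of 0 nM (0.0716, 0.0918 and 0.0858), library 3 of 20 nM (0.0511), library 2 or 3 of 2000 nM (0.0982 and 0.0939) and with no filter (0.0615).

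Genes of light input, CLK cofactors and PER translation showed 0 of 6 tested genes past the test at 20 nM (limma, with 1 at an unadjusted p under 0.05 and 0 by limma-voom), where 4.51% of all tested genes passed, and 2 of 6 at 2000 nM, both lower, where 31.0% passed. Both counts are near the background. These were brm, a chromatin remodeller gene, at -0.25 (adjusted p = 0.0131, a call lost without library 3 of 0 nM at 0.05), and Usp8, a deubiquitinase gene, at -0.22 (adjusted p = 0.0121). The median of the 6 was -0.15 at 2000 nM. For the PER translation factors tyf and Atx2 the changes were 0.12 and -0.24, with adjusted p of 0.478 and 0.0588. That of Atx2 passed with TMM scaling (0.0464), with limma-voom (0.0425), and without library 2 of 0 nM (0.0458), library 1 of 20 nM (0.0453) or library 1 of 2000 nM (0.0124). Its adjusted p reached 0.22 without library 3 of 2000 nM. Levels of cry, the gene of the blue light receptor of the clock, were at or under 12.8 normalised counts in every library, under the filter.

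Of 18 clock neuron and output genes, 9 were in the table and 5 were tested. Of the 5, 1 passed the test at 20 nM and 2 at 2000 nM, where 4.51% and 31.0% of all tested genes did. ITP, the ion transport peptide gene, fell, from 1684, 1895 and 1541 counts at 0 nM to 1076, 1093 and 1096 at 20 nM and 790, 721 and 943 at 2000 nM, with no overlap of the controls with either dose. The log2 change was -0.64 ± 0.09 (adjusted p = 0.00062) and -1.06 ± 0.09 (adjusted p = 9.41e-07). The RNA-binding protein gene lark rose by 0.25 at 2000 nM (adjusted p = 0.0188), a call lost without library 3 of 0 nM (0.0893) or library 3 of 2000 nM (0.0948). The ion channel gene unc79 and the clock neuron gene wake did not pass, with log2 changes of 0.23 and 0.10 at 2000 nM.

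Relatives of the members by protein family were taken as further lists. Of 7 tested bHLH-PAS relatives of Clk and cyc, 3 rose and 2 fell at 2000 nM, where 15.4% of all tested genes rose and 15.5% fell, and the median was 0.29. The antenna and leg regulator ss rose by 0.95 (adjusted p = 1.73e-05), the tracheal regulator trh by 0.41 (adjusted p = 0.000373) and tai, a coactivator of the ecdysone receptor, by 0.85 (adjusted p = 2.65e-06), while Met, a juvenile hormone receptor gene, fell by 0.36 (adjusted p = 0.00548). At 20 nM 2 of the 7 rose, ss and tai, where 2.97% of all tested genes rose, and this count was 1 without library 1 of 0 nM, library 3 of 20 nM or library 3 of 200 nM, and 0 without library 2 or 3 of 0 nM or library 1 or 2 of 20 nM. Of 14 tested bZIP relatives of vri and Pdp1, 5 rose and 3 fell at 2000 nM, beside the same 15.4% and 15.5% of all tested genes, with a median of 0.13. The rises were of CrebA by 1.91 (adjusted p = 1.66e-09), cnc by 1.04 (adjusted p = 1.88e-05) and kay by 0.57 (adjusted p = 7.59e-05), followed by Jra and Xbp1, and the largest fall was of Atf3 by 1.92 (adjusted p = 3e-05). At 20 nM CrebA was the only one of them to rise, by 0.65 (adjusted p = 0.000526), where 2.97% of all tested genes rose. Neither tested bHLH-orange relative of cwo, h and dpn, passed at 20 or 2000 nM (with 1 and 0 at an unadjusted p under 0.05, and 0 by limma-voom at both), with log2 changes of 0.08 and -0.11 at 2000 nM. Of all tested genes 4.51% and 31.0% passed at these doses, and 2 genes are too few to set against such shares.

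**Figure D5:**
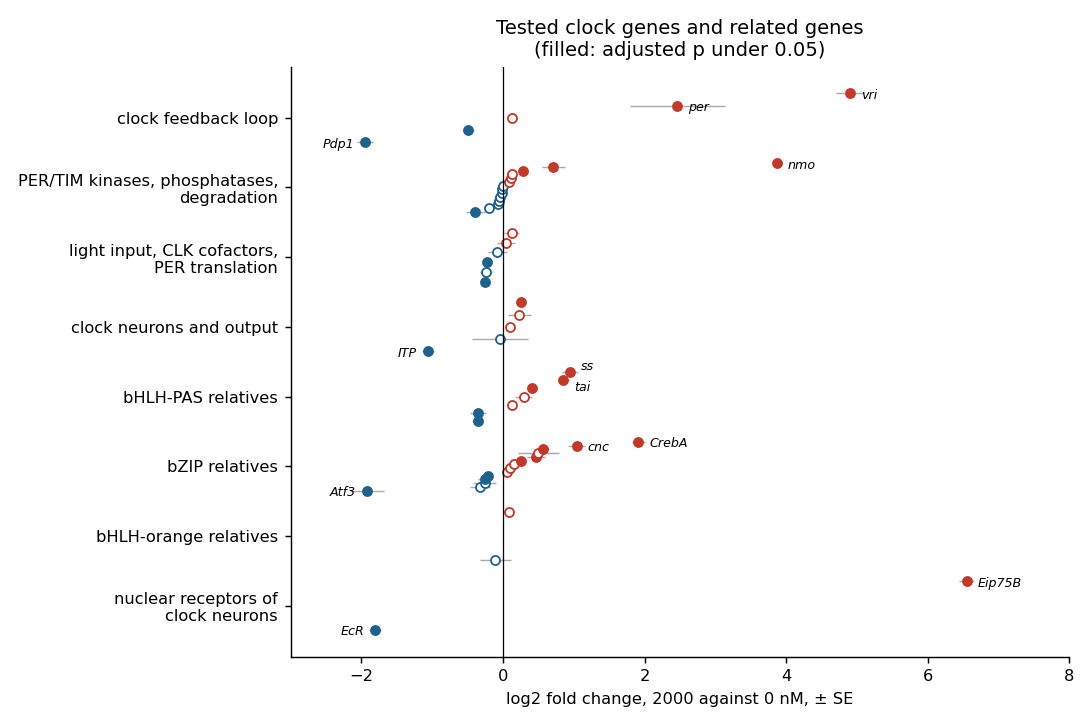
Log2 fold change at 2000 against 0 nM, ± SE, of the 5 tested clock genes and of every tested gene of the 7 lists of related genes, with 1 row of points per list and filled symbols for an adjusted p under 0.05. Eip75B at 6.55, vri at 4.90 and nmo at 3.87 lie farthest to the right.

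Nuclear receptor genes studied in clock neurons moved apart. Eip75B rose at 20 and 2000 nM by 5.53 ± 0.11 and 6.55 ± 0.11 (log2), and EcR, the gene of the ecdysone receptor, fell by 0.94 ± 0.09 (adjusted p = 1.08e-05) and 1.81 ± 0.09 (adjusted p = 1.83e-09). Hr51 and Hr3 were under the filter. In the authors' deposited table, which compares 2000 with 0 nM, the log2 changes were 4.88 ± 0.22 for vri, -1.95 ± 0.12 for Pdp1, -0.49 ± 0.07 for cwo, 2.25 ± 0.65 for per and 0.13 ± 0.08 for cyc. Its adjusted p-values, whose raw values follow a chi-square over the 4 doses, were 1.27e-89, 4.08e-69, 6.84e-14, 0.00607 and 0.603 in that order.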

How the data were processed

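RNA of 12 wing disc libraries was measured, 3 for each of 4 doses of 20E. Per the labels, a directional poly(A) kit was used on RNeasy extracts, although total RNA is given as the molecule. The submitters' processing notes name the tools DESeq2 1.32.0, Subread 2.0.1, SAMtools 1.13 and HISAT2 2.1.0. No coordinates are printed, since genome build, annotation and strand setting were not given in the sources used here. The deposited signal values are counts scaled by the authors with 1 size factor for each library: a factor per library turned 100% of them into whole numbers within 0.001, and these are the reads given. The authors' deposited table also holds a log2 fold change of 2000 against 0 nM, a test score, a p-value and an adjusted p-value, per the file headers; the p-value is that of a chi-square over the 4 doses, and 2842 genes have no adjusted one.

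Genes with at least 10 normalised counts in at least 3 libraries were tested, 8455 in all. The fit used limma 3.58.1 (R 4.3.3) on log2 of the value plus 1, with 1 mean per dose and no block. It had 8 residual degrees of freedom and an intensity trend. It was also run on simulated reads with 1 spread setting for all genes, which does not cover uneven genes such as per. The 6 pairwise comparisons and an F test over the 3 contrasts with 0 nM had p-values adjusted over all 8455 genes (Benjamini-Hochberg), and 0.05 was the threshold. Levels are means ± SD with n = 3 libraries, and log2 changes are on the log2(value + 1) scale ± SE, which understates those of low genes. Ratios of reads were compared by exact permutation tests with SciPy 1.17.1.

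The clock genes and the lists were chosen with earlier results of these data known. Named genes were the 7 clock genes, up to 4 tested genes of each other list with the smallest F test p, and the 3 genes with the most similar profile for each tested clock gene; marker genes, Jra, Xbp1, cry, Hr51 and Hr3 are named besides. Genes carry the symbols the authors deposited, and 12167 of the 12216 identifiers were found in the supplied gene names. Exon lengths and overlaps come from a supplied annotation, BDGP6.54, that may differ from the authors'. Nothing in the labels says that replicates came from separate cultures or animals, and p-values then measure only the spread between libraries, which may be technical. Intervals on reads cover counting error only. The alternatives were other pseudocounts, filters and scaling, limma-voom, a replicate block and each library left out in turn.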

Additional observations from a re-analysis of the deposited data

How the results depend on the processing

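The rises of vri and the falls of Pdp1 against 0 nM kept their direction and stayed past the threshold in all 19 alternatives, 12 of which left out a library. limma-voom was chosen after seeing the data, and the planned edgeR fit was not run. The number of clock genes past the threshold from 20 to 200 nM was 1, and 2 with the replicate block; it was 1 to 2 with a library left out. From 20 to 2000 nM it was 1, but 3 with TMM scaling and with limma-voom, 2 with a pseudocount of 5 and 2 with the replicate block, and 1 to 3 with a library left out. The number over all tested genes moved as well. From 20 to 200 nM it was 676, and 474 to 919 in the 19 alternatives. From 20 to 2000 nM it was 1382, and 992 to 1798 in the alternatives. Over all tested genes, 17 passed from 200 to 2000 nM, 46 with the replicate block and 0 to 18 with a library left out. With the replicate block the PER and TIM list had 2 genes past the threshold at 20 nM, the light input list 1 and the bZIP list 2. With a library left out, the genes past the threshold were 0 to 2 for the bHLH-PAS list and 1 to 2 for the bZIP list at 20 nM, and 1 to 3 for the light input list and 1 to 2 for the clock neuron list at 2000 nM. Beside these, 381 of all tested genes passed at 20 nM, and 269 to 457 in the 19 alternatives. At 2000 nM 2618 passed, and 1942 to 3076 in the alternatives. With no filter 4 nuclear receptor genes passed at 2000 nM, and the share of all genes in that fit is not given here. The 2 gained were Hr51 and Hr3, which rest on few reads. Hr51 had 5 reads at 0 nM and 54 at 2000 nM, with 8.35, 3.16 and 28.5 normalised counts in libraries 1, 2 and 3 of 2000 nM. Hr3 had 0 and 26 reads.

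Log2 changes that did not pass the test changed sign with a library left out: cwo from 200 to 2000 nM lay between -0.05 and 0.09, and at 20 against 0 nM per lay between -0.50 and 1.06, jet between -0.02 and 0.12 and tyf between -0.11 and 0.07. For slmb at 20 nM the range was -0.00 to 0.05, and its lowest value rounds to 0. For cyc at 200 nM the range was -0.03 to 0.04, and that of dpn at 2000 nM -0.35 to 0.03. The cause was not tested.

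Same-numbered libraries of different doses correlated at -0.367 to 0.396 in their deviations from the dose means, with 7 of 18 pairs over 0.1. Their median was 0.0567, against -0.0471 for pairs with different numbers. Nothing in the labels says that the numbers pair the libraries, so the main fit has no block, and the replicate block is given as an alternative. With the replicate block cwo passed at 20 against 0 nM (adjusted p = 0.0149), from 20 to 200 nM (0.0183) and from 20 to 2000 nM (0.0145), Atx2 passed at 2000 nM (0.00372), and per had an adjusted p of 0.0616 in the F test. Depth limits per, tim and Clk: per rested on 4 to 195 reads per library and tim and Clk on at most 7.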
